A study of Mus musculus with 90 samples.

Results

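The comparison described here set frontal cortex of control mice taken 60 min after a mock exposure against frontal cortex of control mice taken 30 min after it. It comprised 10 of the 90 libraries of the series, 5 at 30 min (controls 1, 2, 3, 4 and 5) and 5 at 60 min (controls 1, 2, 3, 5 and 6), chosen by region, condition and time in the sample titles. All animals were resident male C57BL/6J mice that had been housed with a female to hold a territory. A control resident met a wire cage holding a paper cup for 5 min, whereas an intruder-exposed resident met the same cage holding an unfamiliar BALB/cJ male. Animals then stayed in the dark until the brain was taken at 30, 60 or 120 min, and poly(A) RNA of frontal cortex, amygdala and hypothalamus was sequenced. The other groups used were frontal cortex of intruder-exposed residents at 30 and 60 min (5 libraries each), frontal cortex controls at 120 min (6 libraries), and controls at 30 and 60 min of amygdala (5 and 5) and hypothalamus (3 and 5). No animal in the design was left without a cage exposure, so change with time could be measured only between groups of different animals. The labels name an animal for each library, but the design text also says that RNA was pooled for libraries. How far the libraries of a group are separate animals is therefore known only from the animal labels.

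Time was not the only thing that separated the groups. In the headers of the count table, each 30 min library of the 3 regions carried the tag ISO and each 60 or 120 min library the tag CERV, and the labels do not explain either tag. The design text describes a single way of killing, cervical dislocation, for all animals. The 5 controls at 30 min also shared 1 leading library index, while the 60 min controls carried 2 others, 1 in controls 1, 2 and 3 and 1 in controls 5 and 6. Time after the exposure, the tag and the index therefore cannot be told apart in this comparison, and "at 60 min" below names the group, not a cause.

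Frontal cortex is a layered tissue in which excitatory neurons of upper and deep layers, inhibitory interneurons, astrocytes, oligodendrocytes, microglia and vessels each contribute RNA. A new object or handling induces immediate-early genes such as Fos within minutes, and these transcripts decay within hours, followed by delayed activity-response genes such as Vgf and by genes under glucocorticoid receptor control. Transcripts of housekeeping complexes (ribosome, proteasome, respiratory chain) are short and long-lived, while those of large chromatin, channel and synaptic scaffold proteins are long.

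Frontal cortex controls at 60 min differed from those at 30 min in a large part of the transcriptome, mostly by small amounts. Of 17091 genes tested, edgeR's quasi-likelihood test called 6046 (35.4%) at a Benjamini-Hochberg adjusted p below 0.05. Of these, 2947 (17.2%) were higher and 3099 (18.1%) were lower at 60 min. The log2 change, which is 60 min minus 30 min throughout, had a median of 0.23 in the higher genes, -0.33 in the lower genes and 0.00 over all genes. Changes beyond 1 on the log2 scale were found in 65 higher and 198 lower genes. A test against a fold of 1.2 instead of no change (glmTreat of edgeR) called 570 genes, 99 higher and 471 lower. The groups did not overlap in 1905 genes higher at 60 min (11.1%) and in 2243 genes lower (13.1%). Restricting the 60 min group to the index of controls 1, 2 and 3 gave 3799 calls, of which 3715 were among the 6046.

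The libraries held 41.2 M to 53.6 M gene reads, and edgeR's biological coefficient of variation was 10.3%. Shares of reads moved with the groups. Reads without a feature made up 10.99% to 12.7% of all reads at 30 min and 8.99% to 9.71% at 60 min. Reads not uniquely aligned made up 10.2% to 10.5% and 10.7% to 11.3%, and ambiguous reads 0.664% to 0.692% and 0.698% to 0.749%. The 100 most abundant genes took 20.5% to 21.2% and 21.4% to 21.8% of gene reads. In each of these 4 measures the groups did not overlap, with an exact two-sided permutation p of 0.00794, the smallest that 5 against 5 allows, and 0.0139 after adjustment over 7 measures. Taken as shares of gene reads in place of all reads, ambiguous reads and reads not uniquely aligned lost their calls (exact permutation, adjusted p 0.0778 and 0.0694). Mitochondrial genes took 8.18% to 9.08% and 8.91% to 9.70% of gene reads (exact permutation p 0.0556, adjusted 0.0778), and as a share of all reads their adjusted p was 0.0111 in the same exact test, while depth (p 0.706) and genes with a read (p 0.119) passed no threshold in the same exact test. The part of these shares in the changes of single genes was not tested. Within the 60 min group, controls 1 and 5 resembled each other most, with a chi-square per degree of freedom of 7.68 over gene counts against 10.1 to 31.7 for the other pairs, and they do not share an index.

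**Figure D1:**
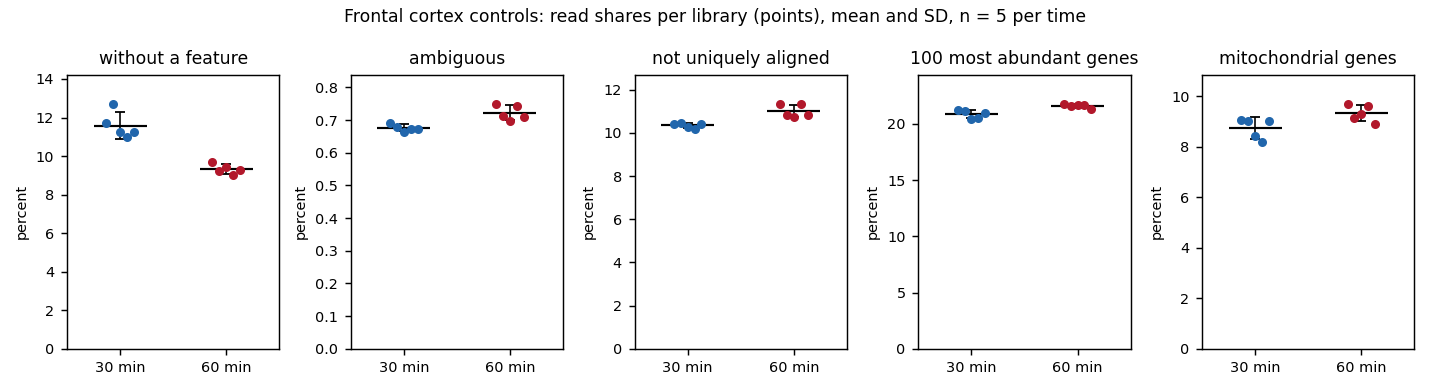
Percent of reads per library at 30 min (blue) and 60 min (red) in frontal cortex controls; points are libraries, the horizontal line is the mean and the bar the SD (n = 5). The shares without a feature, ambiguous, not uniquely aligned and in the 100 most abundant genes do not overlap between the groups.

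As a check of the label, markers of cortical excitatory neurons were abundant, with a summed level of 5172 to 5892 CPM at 30 min and 5192 to 5448 CPM at 60 min. Slc17a7, the vesicular glutamate transporter of cortical neurons, went from 1299.8 ± 37.98 to 1450.4 ± 74.04 CPM (SD, n = 5) without a call (edgeR adjusted p 0.0827). All 6 tested markers of hypothalamus and pituitary had a mean below 1 CPM over the 10 libraries.

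The 10 genes higher at 60 min that led by adjusted p are given first. They, like the lower genes after them, were chosen among called genes without overlap between the groups and with a mean of at least 1 CPM. Nxph3 (ENSMUSG00000046719), which encodes a secreted ligand of alpha-neurexins, was at 12.4, 12.3, 19.8, 11.7 and 13.3 CPM at 30 min and 30.4, 26.4, 31.2, 34.3 and 29.99 CPM at 60 min. Control 3 at 30 min lay above its group, and the 60 min libraries were all above it (log2 change 1.13 ± 0.15 (SE), edgeR adjusted p 8.71e-06). Sst (ENSMUSG00000004366), the peptide somatostatin of a class of interneurons, was at 117, 130.3, 132, 128 and 109 CPM at 30 min and 188, 164, 172, 199 and 179.6 CPM at 60 min. Again no 60 min library reached down to the 30 min range (log2 change 0.55 ± 0.076 (SE), edgeR adjusted p 1.4e-05). Bcl2l1 (ENSMUSG00000007659), which encodes the anti-apoptotic protein Bcl-xL, was at 88.9, 83.1, 87.2, 86.3 and 89.8 CPM at 30 min and 108, 108, 109.7, 119 and 113 CPM at 60 min, a tight pair of groups (log2 change 0.36 ± 0.045 (SE), edgeR adjusted p 5.01e-06). Got2 (ENSMUSG00000031672), the mitochondrial aspartate aminotransferase of the malate-aspartate shuttle, was at 171, 171, 181, 192 and 178 CPM at 30 min and 221, 212, 208, 229.6 and 228 CPM at 60 min. Its change was smaller but well outside the spread of the libraries (log2 change 0.30 ± 0.041 (SE), edgeR adjusted p 1.36e-05). Ehd1, an ATPase of endocytic recycling, rose by 0.29 ± 0.035 (log2, SE) and Clptm1, an endoplasmic reticulum protein that retains GABA-A receptors, by 0.26 ± 0.031. N4bp3 (0.86), Fbll1 (0.40), Tmem115 (0.31) and Tmem179 (0.28) completed the first 10 by p. Against a fold of 1.2, Nxph3, Sst and N4bp3 kept a call among these 10.

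The 10 lower genes were ranked the same way. S1pr1 (ENSMUSG00000045092), a receptor for the lipid sphingosine 1-phosphate, was at 163, 170.4, 150.1, 151 and 174 CPM at 30 min and 67.2, 78.9, 90.2, 57.9 and 65.3 CPM at 60 min. The 60 min libraries were all far below the 30 min range (log2 change -1.17 ± 0.13 (SE), edgeR adjusted p 1.26e-06). Lepr, the leptin receptor, was much scarcer, at 5.21, 4.82, 4.15, 4.83 and 4.40 CPM at 30 min and 2.39, 2.35, 2.37, 1.74 and 2.81 CPM at 60 min, and also without overlap (log2 change -1.004 ± 0.12 (SE), edgeR adjusted p 2.23e-06). Pnisr (ENSMUSG00000028248), a nuclear protein rich in arginine and serine, was at 318, 346, 302, 315 and 324 CPM at 30 min and 212, 214, 232, 196 and 223 CPM at 60 min. Papola (ENSMUSG00000021111), the canonical poly(A) polymerase, was at 132, 138, 139.7, 138 and 145 CPM at 30 min and 91.3, 103, 104.5, 98.3 and 100.5 CPM at 60 min. Both fell well outside their spread, by 0.58 ± 0.066 for Pnisr and 0.48 ± 0.057 for Papola on the log2 scale (edgeR adjusted p 2.23e-06 and 2.72e-06). Magi1, a scaffold of cell junctions, fell by 0.42 ± 0.049, Snx9, a sorting nexin of endocytosis, by 0.51 ± 0.062 and Ctsc, the lysosomal protease cathepsin C, by 0.67 ± 0.081. P3h3 (-0.85), Ranbp3l (-0.91) and Sestd1 (-0.48) completed the first 10, and all 10 kept a call against a fold of 1.2.

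**Figure D2:**
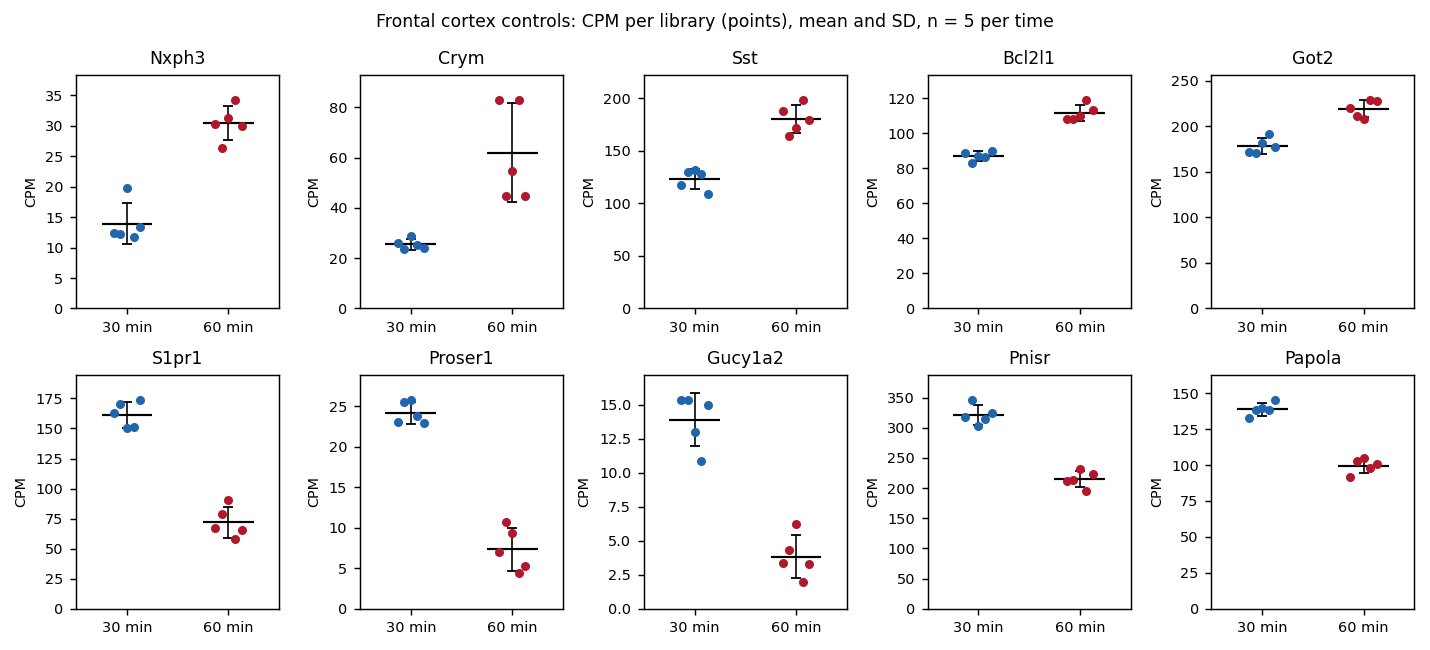
CPM of 10 genes per library in frontal cortex controls at 30 min (blue) and 60 min (red); points are libraries, the line is the mean and the bar the SD (n = 5). The upper row shows genes higher at 60 min and the lower row genes lower at 60 min, all chosen among genes without overlap. Crym has 2 libraries (controls 1 and 5) far above the other 3 at 60 min.

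The 10 genes with the largest changes, 5 in each direction, follow. They were taken from called genes with a mean of at least 1 CPM and no overlap between the groups. The lack of overlap was thus a condition of the choice. Gucy1a2 (ENSMUSG00000041624), a subunit of the nitric oxide receptor guanylate cyclase, was at 15.4, 15.4, 13.002, 10.9 and 14.97 CPM at 30 min and 3.34, 4.33, 6.24, 1.97 and 3.28 CPM at 60 min. Control 5 was the lowest library at 60 min and control 3 the highest (log2 change -1.87 ± 0.40 (SE), edgeR adjusted p 6.99e-04). Proser1 (ENSMUSG00000049504) was at 23.1, 25.5, 25.8, 23.8 and 22.9 CPM at 30 min and 6.95, 10.7, 9.34, 4.42 and 5.29 CPM at 60 min, where controls 5 and 6 were the lowest of the 60 min group (log2 change -1.73 ± 0.27 (SE), edgeR adjusted p 3.21e-05). Lnpep, an aminopeptidase that cleaves oxytocin and vasopressin, was at 34.1, 34.01, 26.9, 27.6 and 30.03 CPM at 30 min and 8.18, 11.3, 15.04, 3.72 and 9.75 CPM at 60 min. At 60 min control 5 was lowest and control 3 highest, and both lay below the 30 min range (log2 change -1.68 ± 0.38 (SE), edgeR adjusted p 9.98e-04). Dgkh, a diacylglycerol kinase, changed by -1.81 ± 0.33 and Kcna3, a voltage-gated potassium channel, by -1.66 ± 0.39 on the log2 scale. In the other direction, Top2a, the topoisomerase of dividing cells, was at 0.853, 0.983, 0.862, 0.622 and 0.734 CPM at 30 min and 2.51, 2.20, 3.01, 1.84 and 1.499 CPM at 60 min, a low level throughout (log2 change 1.44 ± 0.29 (SE), edgeR adjusted p 3.47e-04). Crym (ENSMUSG00000030905), which encodes a thyroid hormone-binding protein, was at 26.2, 23.6, 28.98, 25.4 and 23.8 CPM at 30 min and 83.04, 44.5, 54.5, 82.98 and 44.8 CPM at 60 min. Controls 1 and 5 at 60 min held far more than controls 2, 3 and 6 (log2 change 1.28 ± 0.18 (SE), edgeR adjusted p 1.89e-05). Rftn1, a lipid raft protein, also had its highest values in controls 1 and 5, at 3.07, 2.91, 3.56, 2.68 and 3.75 CPM at 30 min and 9.30, 5.26, 6.996, 9.94 and 4.86 CPM at 60 min (log2 change 1.19 ± 0.23 (SE), edgeR adjusted p 2.78e-04). Nxph4, a second neurexophilin, changed by 1.42 ± 0.34 and the cytochrome P450 gene Cyp2j12 by 1.28 ± 0.25.

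Most nuclear genes of the respiratory chain, ribosome, proteasome and glycolysis lists were higher at 60 min, by small amounts. For these controls, counts of this and later lists stand beside 17.2% of all genes higher and 18.1% lower. Of 77 tested nuclear genes of oxidative phosphorylation, 69 were higher and 1 was lower at 60 min, with a median log2 change of 0.23. Their summed level was 8692 to 9493 CPM at 30 min and 10308 to 10988 CPM at 60 min, without overlap. Atp5g3, a subunit of the ATP synthase ring, went from 179 ± 8.21 to 226 ± 10.5 CPM (SD, n = 5; log2 change 0.33 ± 0.047 (SE), edgeR adjusted p 1.53e-05), and Ndufa7 of complex I from 42.4 ± 1.58 to 54.4 ± 3.14 CPM (log2 change 0.36 ± 0.052 (SE), edgeR adjusted p 1.8e-05). The lower member, Ndufab1, is the mitochondrial acyl carrier protein and changed by -0.11 ± 0.042, a call lost without any 1 of 7 libraries and under 9 other settings. Cytosolic ribosomal protein genes were higher in 71 of 78 and lower in none, with a median of 0.24 and a sum of 8908 to 9778 CPM at 30 min and 10577 to 11873 CPM at 60 min. Rpl7a rose by 0.33 ± 0.047 and Rps16 by 0.37 ± 0.064 (log2, SE). Such genes have many near-identical pseudogenes, so their counts are uncertain to the extent that reads were left unassigned.

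Proteasome subunits were higher in 31 of 38 (median 0.17) and enzymes of glycolysis and the citrate cycle in 21 of 33 (median 0.16), and no member of either list was lower. Aldoa, the aldolase of glycolysis, rose from 1216 ± 48.8 to 1539.8 ± 114 CPM (log2 change 0.34 ± 0.051 (SE), edgeR adjusted p 2.83e-05) and Gapdh, often used as a reference gene, from 749.6 ± 21.5 to 908 ± 48.6 CPM (log2 change 0.28 ± 0.047 (SE), edgeR adjusted p 7.71e-05). Eno2, the neuronal enolase, rose by 0.25 ± 0.038 and Psmb6, a catalytic subunit of the proteasome, by 0.30 ± 0.048 (log2, SE). Of 12 mitochondrially encoded protein genes 2 were higher, no more than the 17.2% of all genes, namely mt-Nd4 at 0.19 ± 0.059 and mt-Nd2 at 0.18 ± 0.065 (lost without controls 3 or 4 at 30 min or control 1 at 60 min), and the median was 0.14. The count was 1 without any of these 3 libraries and 4 without control 6 at 60 min. Both calls were lost with the index of controls 5 and 6 alone, and mt-Nd2 also with that of controls 1, 2 and 3 and with the replicate block. No member of these 5 lists kept a call against a fold of 1.2. With the 60 min group restricted to the index of controls 1, 2 and 3, 59 oxidative phosphorylation, 60 ribosomal, 22 proteasome and 16 glycolysis and citrate cycle members were higher.

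Genes of large chromatin proteins, ion channels and synaptic scaffolds were called lower more often than higher. Of 29 chromatin regulators chosen for their large proteins, 23 were lower and none was higher, with a median log2 change of -0.28. The summed level was 3367 to 3690.3 CPM at 30 min and 2857 to 3024 CPM at 60 min, again without overlap. Kmt2c, a histone H3 lysine methyltransferase, was at 106, 110.2, 95.8, 89.8 and 88.1 CPM at 30 min and 61.3, 66.7, 69.2, 55.2 and 62.3 CPM at 60 min. All 5 libraries at 60 min lay below the lowest at 30 min (log2 change -0.64 ± 0.10 (SE), edgeR adjusted p 3.82e-05). Chd9, a chromatin remodeler, fell from 84.8 ± 3.67 to 56.9 ± 4.91 CPM (SD, n = 5; log2 change -0.58 ± 0.078 (SE), edgeR adjusted p 1.13e-05), and Ep300, a histone acetyltransferase, from 76.2 ± 4.82 to 51.8 ± 3.38 CPM (log2 change -0.56 ± 0.098 (SE), edgeR adjusted p 1.23e-04). Ash1l changed by -0.57 ± 0.088 and Chd8 by -0.36 ± 0.048. Against a fold of 1.2, 5 of the 23 chromatin regulators kept a call, as did 9 of the 23 lower channels, 1 of the 15 lower receptor subunits and none of the 9 lower postsynaptic scaffold genes described next.

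Of 48 voltage-gated ion channel genes, 23 were lower and 3 were higher (median -0.22), beside 18.1% and 17.2% of all genes. The higher count was 5 without control 6 at 60 min or with the 2 groups alone, and 7 with the replicate block. Scn1a, a sodium channel subunit prominent in interneurons, fell from 229.6 ± 6.45 to 147 ± 32.4 CPM (log2 change -0.64 ± 0.13 (SE), edgeR adjusted p 4.92e-04) and Cacna1e, a calcium channel, from 177 ± 15.1 to 99.1 ± 12.6 CPM (log2 change -0.84 ± 0.18 (SE), edgeR adjusted p 6.17e-04). Kcnh5 and Kcnq3, both potassium channel subunits, changed by -1.04 ± 0.21 and -1.16 ± 0.25. Hcn2, a pacemaker channel, was among the 3 higher members, at 0.16 ± 0.058, and lost its call without any of controls 2 and 5 at 30 min and control 2 at 60 min. Of 36 subunits of glutamate and GABA-A receptors, 15 were lower and 3 higher (median -0.11), beside 18.1% and 17.2% of all genes. Grin2a (ENSMUSG00000059003), an NMDA receptor subunit, was at 29.9, 27.97, 24.5, 24.8 and 24.5 CPM at 30 min and 8.18, 11.02, 12.8, 5.21 and 8.78 CPM at 60 min, without overlap (log2 change -1.52 ± 0.32 (SE), edgeR adjusted p 6.47e-04). Grin2b, a second NMDA receptor subunit, fell from 24.5 ± 4.50 to 10.6 ± 2.78 CPM (log2 change -1.22 ± 0.33 (SE), edgeR adjusted p 0.00483), with its call lost with the index of controls 1, 2 and 3 alone. The AMPA receptor subunit Gria1 was higher, at 0.18 ± 0.069, and lost its call without any of control 2 at 30 min and controls 1 and 5 at 60 min. With the index of controls 1, 2 and 3 alone, 15 channels and 7 receptor subunits were lower, and with offsets for GC content and transcript length 17 and 6. With those offsets 7 receptor subunits were higher, so that the lower members no longer outnumbered the higher ones.

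Of 20 postsynaptic scaffold genes 9 were lower and none was higher (median -0.19), beside 18.1% and 17.2% of all genes. Shank2 was at -0.43 ± 0.082 and Dlgap1 at -0.36 ± 0.068. The count was 4 with the index of controls 1, 2 and 3 alone. Of 18 genes of synaptic vesicles and release, 7 were higher and 4 lower (6 and 2 with offsets for GC content and length), where the lower share is near the 18.1% of all genes. The lower members were the large active zone proteins Pclo (-0.75 ± 0.13), Unc13a (-0.36 ± 0.070), Bsn (-0.33 ± 0.081) and Rims1 (-0.33 ± 0.081), and the higher ones included the vesicle proteins Vamp2 (0.29 ± 0.046) and Sv2a (0.16 ± 0.036), whose call was lost with the offsets. Vamp2, the vesicle SNARE, rose from 1016 ± 15.1 to 1239 ± 46.4 CPM and Pclo fell from 210.3 ± 11.5 to 125 ± 17.2 CPM. Of 4 nuclear-retained long noncoding RNAs with a value, Meg3 (-0.34 ± 0.081), Snhg11 (-0.24 ± 0.071) and Malat1 (-0.64 ± 0.19) were lower. Malat1 lost its call without control 2 at 30 min and with the index of controls 1, 2 and 3 alone.

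**Figure D3:**
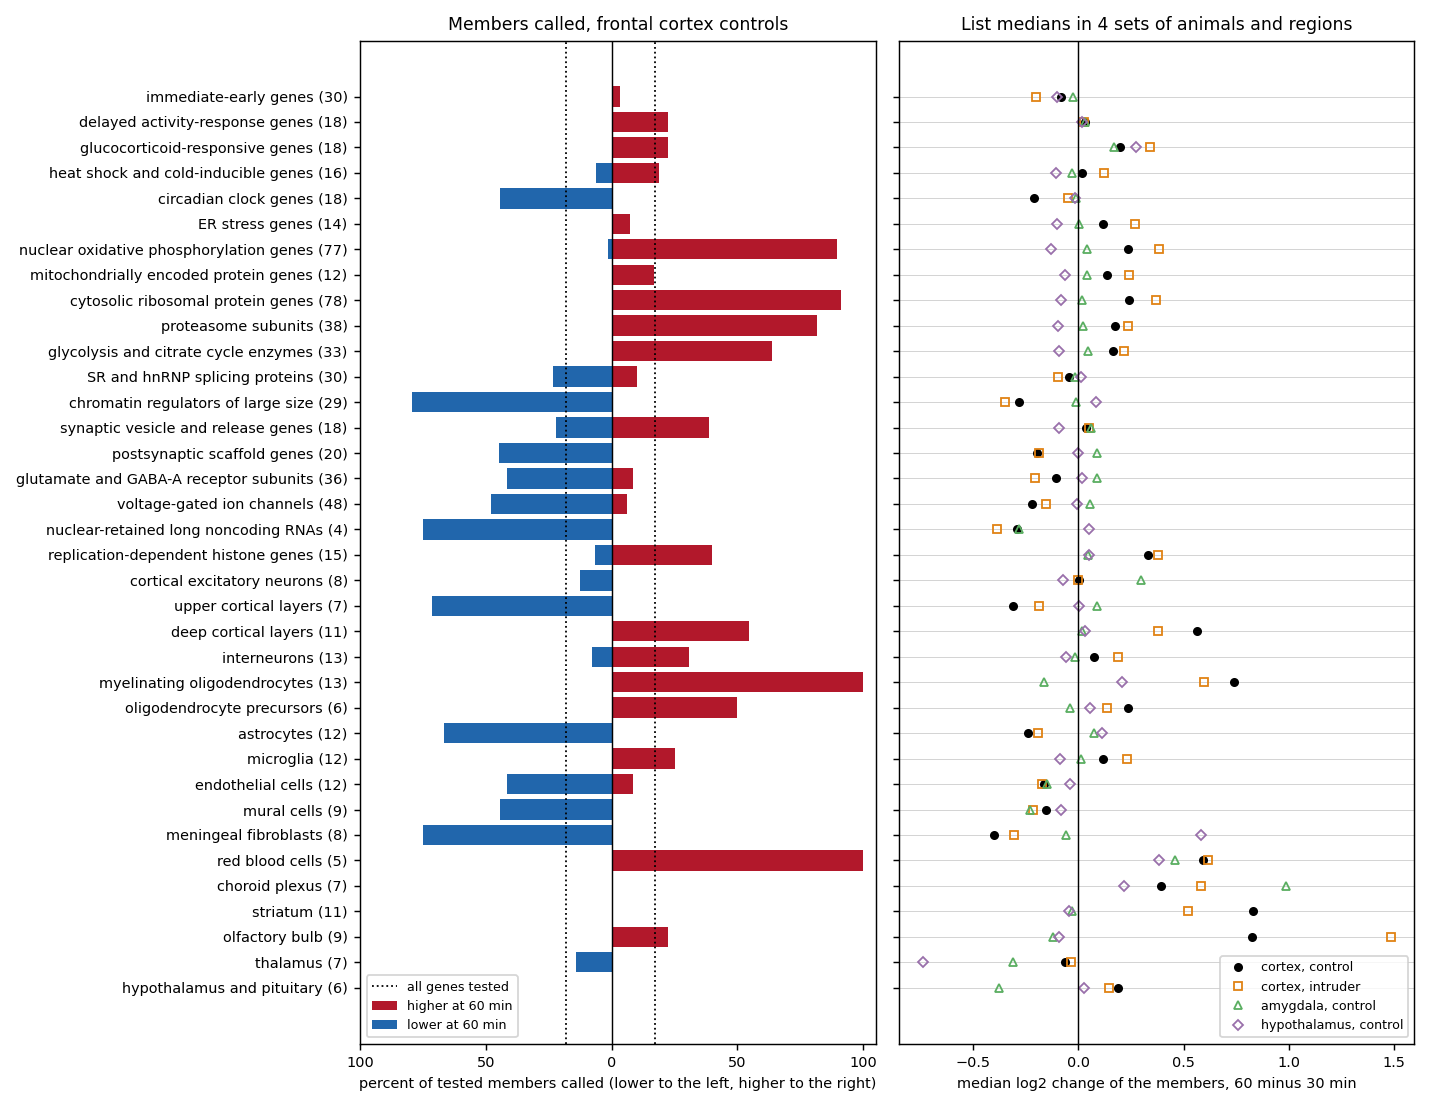
Left, percent of tested members (number in brackets) of 36 lists called higher (red) or lower (blue) at 60 min in frontal cortex controls, with dotted lines at the 17.2% and 18.1% of all genes. Right, median log2 change of each list in frontal cortex controls, intruder-exposed frontal cortex, amygdala controls and hypothalamus controls; the lists of metabolism and ribosome lie right of zero and chromatin left of it in both cortex sets.

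The direction of change followed the composition and length of transcripts over all genes, as a description without a test. Values for GC content and length, medians over the annotated transcripts of a gene, were available for 95.9% of the tested genes, split into 5 bins of 3279 genes. From the bin lowest in GC content to the highest the median log2 change went from -0.12 over -0.06, 0.00 and 0.08 to 0.11. The share called lower fell from 31.9% to 5.09% and the share called higher went from 5.34% to 29.3%. From the bin of shortest transcripts to that of the longest the median went from 0.07 to -0.12. Shares called lower were 10.7% in the shortest and 32.3% in the longest bin, and shares called higher 26.0% and 6.04%. The median transcript length was 607 bases in the oxidative phosphorylation list, 1937 in the chromatin list and 1478 over all genes tested. With GC content and length as offsets in the fit, 5357 genes were called, 2973 higher and 2384 lower, and 3942 of them were among the 6046. In that fit 68 oxidative phosphorylation genes were higher and 20 chromatin regulators lower, while the ribosomal protein genes called higher went from 71 to 56. There 9 mitochondrially encoded genes were higher in place of 2.

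**Figure D4:**
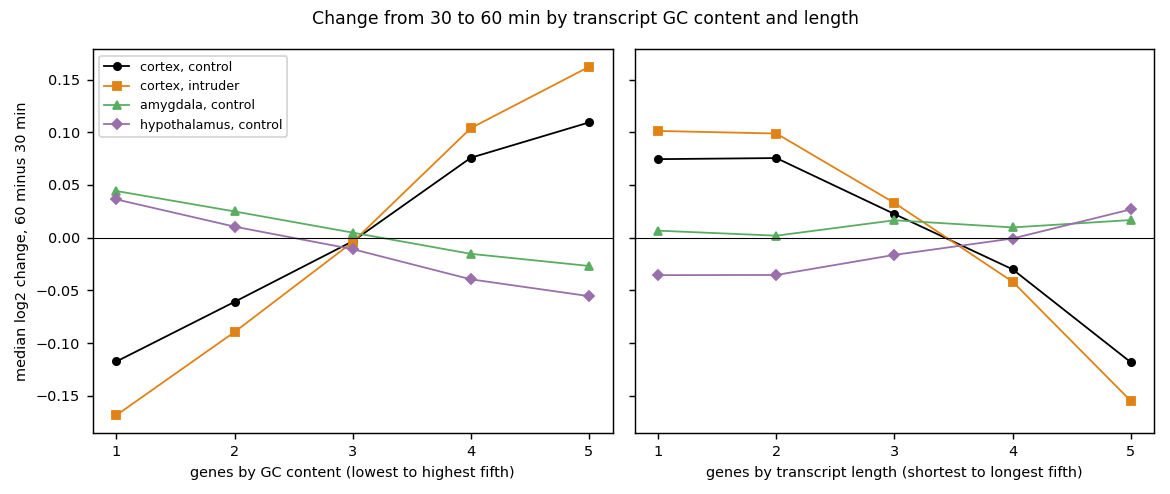
Median log2 change from 30 to 60 min in 5 bins of genes by GC content (left) and transcript length (right), for frontal cortex controls, intruder-exposed frontal cortex, amygdala controls and hypothalamus controls. In frontal cortex controls the medians go from -0.12 to 0.11 with GC content and from 0.07 to -0.12 with length, and the other 2 regions show slopes of the opposite sign for GC content.

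Markers of cortical layers differed in opposite directions. In bulk tissue, fewer cells of a type and less RNA per cell cannot be told apart, nor can a dissection that took other proportions of layers. Of 11 deep-layer markers 6 were higher and none was lower (median 0.56), and of 7 upper-layer markers 5 were lower and none was higher (median -0.31). Against a fold of 1.2, 3 deep-layer and 2 upper-layer markers kept a call. The summed deep-layer markers reached 298 to 388 CPM at 30 min and 437 to 485 CPM at 60 min, and the upper-layer markers 990.4 to 1119 CPM at 30 min and 682 to 896 CPM at 60 min, both without overlap. Rasgrf2 (ENSMUSG00000021708), an upper-layer guanine nucleotide exchange factor, was at 291, 277, 252, 283 and 269 CPM at 30 min and 148, 196, 172, 145 and 173 CPM at 60 min. The 60 min values were low in each library (log2 change -0.72 ± 0.089 (SE), edgeR adjusted p 4.72e-06). Cux2, a transcription factor of upper layers, fell from 134 ± 10.1 to 89.5 ± 14.5 CPM (log2 change -0.59 ± 0.11 (SE), edgeR adjusted p 2.05e-04). Among deep-layer genes, Fezf2, a transcription factor of subcortical projection neurons, rose from 22.99 ± 3.73 to 34.4 ± 5.41 CPM (log2 change 0.58 ± 0.16 (SE), edgeR adjusted p 0.00582) and Hs3st4, a heparan sulfate sulfotransferase, from 40.3 ± 7.03 to 59.7 ± 3.13 CPM (log2 change 0.56 ± 0.11 (SE), edgeR adjusted p 4.01e-04). Tle4 (0.27 ± 0.11, adjusted p 0.0526) and Foxp2 (0.73 ± 0.31, adjusted p 0.0687), 2 regulators of deep layers, did not pass the edgeR threshold, nor did the upper-layer gene Lamp5 (-0.24 ± 0.15, adjusted p 0.224).

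All 13 myelin genes were higher at 60 min (median 0.74), and their sum was 3133 to 4023 CPM at 30 min and 4533 to 7180.1 CPM at 60 min. Mbp (ENSMUSG00000041607), a structural protein of myelin, was at 1363, 1340.5, 1626, 1281 and 1476 CPM at 30 min and 1968, 2709, 2913, 1950.4 and 2583 CPM at 60 min. Controls 1 and 5 had the lowest values of the 60 min group, the same 2 libraries that had the highest Crym (log2 change 0.77 ± 0.15 (SE), edgeR adjusted p 2.49e-04). Opalin, a protein of mature oligodendrocytes, rose from 8.62 ± 0.533 to 15.7 ± 2.28 CPM (log2 change 0.86 ± 0.15 (SE), edgeR adjusted p 1.28e-04) and Cldn11, of myelin tight junctions, from 89.95 ± 12.7 to 161 ± 30.8 CPM (log2 change 0.84 ± 0.15 (SE), edgeR adjusted p 1.59e-04). Against a fold of 1.2, 9 of the 13 kept a call. Of 6 genes listed for oligodendrocyte precursors, 3 were higher, beside 17.2% of all genes. These were Olig1 (0.50 ± 0.086), Sox10 (0.57 ± 0.11) and Olig2 (0.44 ± 0.14), which mature oligodendrocytes express too. Of 12 astrocyte genes 8 were lower and none was higher (median -0.24), with a sum of 6019 to 6758 CPM at 30 min and 4556 to 5701 CPM at 60 min. Slc1a2, the main glutamate transporter of astrocytes, was at 3599.9, 3672, 3324, 3237 and 3479 CPM at 30 min and 2219.6, 2821, 2899, 2160.5 and 2434 CPM at 60 min, without overlap (log2 change -0.47 ± 0.073 (SE), edgeR adjusted p 3.66e-05). Fgfr3, a fibroblast growth factor receptor, changed by -0.31 ± 0.068. The astrocyte count was 1 against a fold of 1.2, 3 with the index of controls 1, 2 and 3 alone, and 4 to 8 when single libraries were left out (4 without controls 1 or 2 at 30 min or control 6 at 60 min).

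All 5 red blood cell genes were higher, among them Hbb-bt at 0.64 ± 0.14 and Hbb-bs at 0.53 ± 0.14, with a sum of 70.4 to 102 CPM at 30 min and 112 to 138 CPM at 60 min. Hbb-bs, an adult beta globin whose counts leave out reads that also align to its near-identical copy, was at 49.7, 45.3, 54.6, 36.2 and 40.04 CPM at 30 min and 68.1, 57.3, 65.2, 70.2 and 64.6 CPM at 60 min (log2 change 0.53 ± 0.14 (SE), edgeR adjusted p 0.00318). The endothelial sums overlapped, at 435 to 504 CPM at 30 min and 389 to 516 CPM at 60 min, as did the meningeal sums, at 126 to 157 CPM at 30 min and 91.2 to 129.9 CPM at 60 min. Of 12 endothelial genes 5 were lower and 1, Slc2a1, was higher, beside 18.1% and 17.2% of all genes. The same shares stand beside the mural and meningeal counts below. The Slc2a1 call was lost without any 1 of 5 libraries. Kdr, a receptor of vascular endothelial growth factor, changed by -0.59 ± 0.12 and Tek, the angiopoietin receptor, by -0.49 ± 0.11. Of 9 mural cell genes 4 were lower, led by Rgs5, a pericyte regulator of G-protein signalling, from 127 ± 7.14 to 88.3 ± 12.8 CPM (log2 change -0.52 ± 0.082 (SE), edgeR adjusted p 4.21e-05). Of 8 meningeal fibroblast genes 6 were lower (median -0.40), led by the matrix proteoglycans Lum (-0.66 ± 0.13) and Dcn (-0.47 ± 0.10). The mural count was 2 without control 2 at 30 min or control 2 at 60 min, and the meningeal count ranged from 3 to 8 when single libraries were left out (3 without control 1 at 30 min or control 2 at 60 min). Against a fold of 1.2, 1 member of each of the red blood cell, endothelial, mural and meningeal lists kept a call. No member of these lists was at 0 in any of the 10 libraries.

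**Figure D5:**
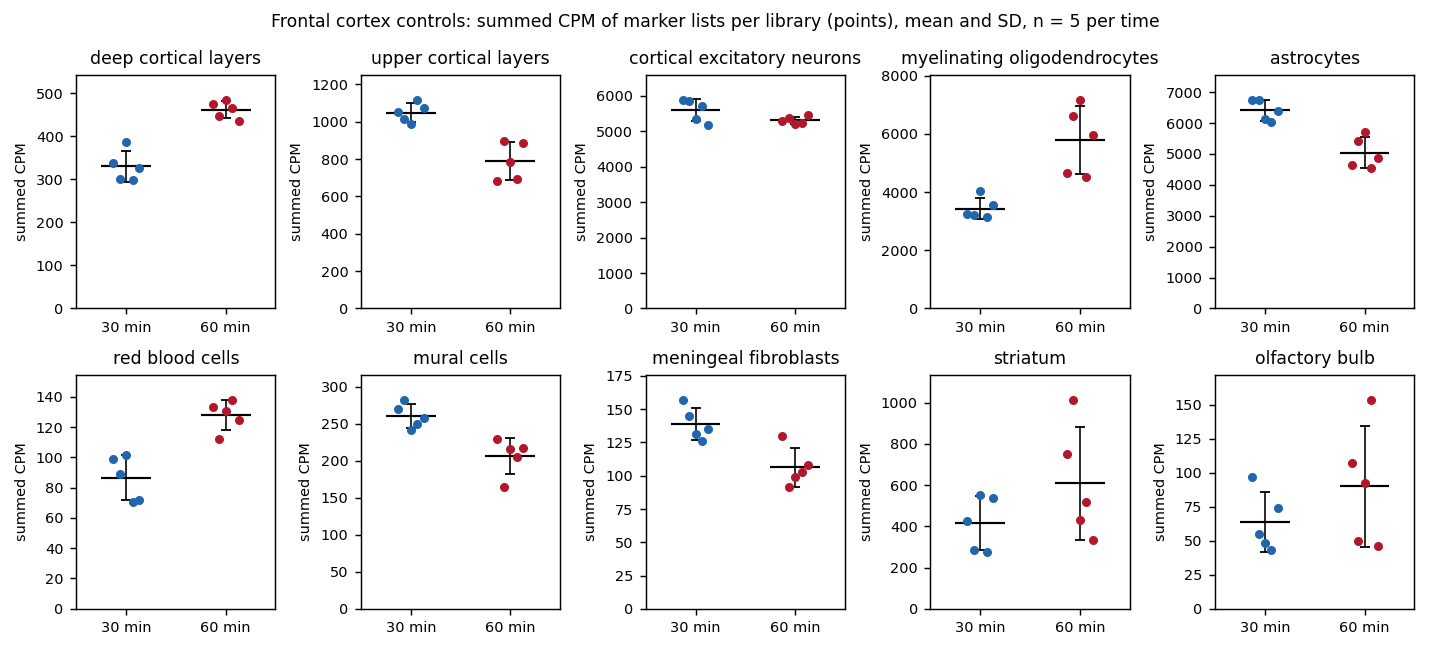
Summed CPM of 10 marker lists per library in frontal cortex controls at 30 min (blue) and 60 min (red); points are libraries, the line is the mean and the bar the SD (n = 5). Deep layers, myelin and red blood cells are higher and upper layers, astrocytes and mural cells lower at 60 min without overlap, while excitatory neurons, meningeal fibroblasts, striatum and olfactory bulb overlap.

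Markers of neighbouring tissue were present, with overlapping groups. The 11 striatal markers summed to 275 to 550.4 CPM at 30 min and 333 to 1013 CPM at 60 min, with control 2 highest at 60 min and control 1 next. No striatal marker was called, with a list median of 0.83, but the fit of the 2 groups alone and the replicate block each called 4 of the 11 higher. Drd1, the dopamine receptor of striatal neurons, changed by 0.83 ± 0.55 with an edgeR adjusted p of 0.254. The 9 olfactory bulb markers summed to 43.3 to 97.1 CPM at 30 min and 46.3 to 153 CPM at 60 min. All 9 had a positive log2 change (median 0.83), but 2 were called, near the 17.2% of all genes. These were Th (1.26 ± 0.48) and Dlx2 (0.55 ± 0.17), and both lost the call without control 5 at 60 min, Th also without any of 4 other libraries. The count ranged from 0 without control 5 at 60 min to 5 without control 1 at 30 min or control 2 at 60 min, and the replicate block gave 5. No member of the choroid plexus list was called. Of 7 thalamic markers 1, Lef1 (-0.28 ± 0.093), was lower, below the 18.1% of all genes. Lef1 lost its call without control 1 at 30 min or control 6 at 60 min. The part of dissection in the changes of other genes was not tested.

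Immediate-early genes, the usual measure of recent neuronal activity, gave 1 higher call among 30 tested members in these controls. That is below the 17.2% of all genes. The call was Jund at 0.25 ± 0.066 (edgeR adjusted p 0.00367), lost with offsets for GC content and length, and the list median was -0.08. Fos itself was at 66.9, 46.4, 53.5, 59.2 and 52.4 CPM at 30 min and 53.4, 53.1, 58.8, 46.7 and 45.5 CPM at 60 min. The ranges overlapped over most of their length (log2 change -0.11 ± 0.23 (SE), edgeR adjusted p 0.737). Arc, which encodes a synaptic capsid-like protein, was at 570.2, 500.3, 549, 530.0 and 413 CPM at 30 min and 377, 517, 507, 309.7 and 411 CPM at 60 min (log2 change -0.27 ± 0.25 (SE), edgeR adjusted p 0.419), and Egr1 changed by 0.08 ± 0.13 (adjusted p 0.678). Fosb (0.52 ± 0.22, adjusted p 0.0610) and Dusp1 (-0.41 ± 0.19, adjusted p 0.0896), a phosphatase of MAP kinases, had larger changes in opposite directions that did not pass the edgeR threshold. Of 18 delayed activity-response genes 4 were higher, near the 17.2% of all genes, namely Cdkn1a (0.61 ± 0.16), Vgf (0.28 ± 0.091), Nfil3 (0.37 ± 0.13) and Scg2 (0.39 ± 0.13). Vgf and Scg2 encode neuropeptide precursors. Vgf lost its call without control 6 at 60 min, Nfil3 without control 4 at 30 min or control 5 at 60 min, and Scg2 without any of control 2 at 30 min and controls 1 and 5 at 60 min. Without control 5 at 60 min 2 delayed genes were higher. A fit of the 2 groups alone called 4 immediate-early genes higher and 3 lower, and 8 delayed genes higher and 1 lower. The replicate block called 6 immediate-early genes higher and 2 lower, and 8 delayed genes higher and 1 lower, while the index of controls 1, 2 and 3 alone left 1 delayed gene higher.

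Of 18 glucocorticoid-responsive genes 4 were higher and none was lower, a share of higher members near the 17.2% of all genes, and the median log2 change was 0.20. Mt1 (ENSMUSG00000031765), a metallothionein that binds zinc, was at 122, 106, 122, 101 and 108 CPM at 30 min and 148, 185, 158, 153 and 144 CPM at 60 min. The groups did not overlap, and the call held against a fold of 1.2 (log2 change 0.50 ± 0.077 (SE), edgeR adjusted p 3.43e-05). Mt2, its neighbour and close paralog, went from 62.96 ± 5.81 to 89.2 ± 7.36 CPM (log2 change 0.50 ± 0.096 (SE), edgeR adjusted p 2.45e-04), and Arrdc2, an arrestin domain protein, from 10.8 ± 1.92 to 15.6 ± 1.46 CPM (log2 change 0.53 ± 0.14 (SE), edgeR adjusted p 0.00296). Cdkn1a, the cell cycle inhibitor p21, belongs to this list too. Sgk1, a kinase that glucocorticoids induce, changed by 0.27 ± 0.17 without a call (edgeR adjusted p 0.223).

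Of 18 circadian clock genes 8 were lower and none was higher (median -0.21), beside 18.1% and 17.2% of all genes. In the clock, CLOCK and BMAL1 drive transcription of Per, Cry and Nr1d genes through the E-box, and the Per and Cry proteins repress them. Per3 (ENSMUSG00000028957), a repressor of the clock, was at 81.2, 81.5, 77.9, 71.3 and 66.6 CPM at 30 min and 59.9, 58.4, 54.3, 51.8 and 57.9 CPM at 60 min. The groups did not overlap (log2 change -0.42 ± 0.072 (SE), edgeR adjusted p 9.19e-05). Nr1d2, which encodes the nuclear receptor REV-ERB beta, was at 168, 159, 179, 172 and 170.0 CPM at 30 min and 123.3, 142, 135, 109.5 and 144 CPM at 60 min, again without overlap (log2 change -0.38 ± 0.075 (SE), edgeR adjusted p 4.05e-04). Rora, an activating nuclear receptor of the clock, fell from 99.02 ± 4.73 to 62.01 ± 16.1 CPM (log2 change -0.68 ± 0.12 (SE), edgeR adjusted p 1.23e-04), and Clock itself from 90.9 ± 1.04 to 67.5 ± 8.06 CPM (log2 change -0.43 ± 0.096 (SE), edgeR adjusted p 0.00103). Against a fold of 1.2, Rora alone among the 8 kept a call. Rorb, also an upper-layer marker, Hlf, Per2 and Cry2 were the other lower members. Hlf, Per2 and Cry2 lost their calls without control 5 at 60 min, which left 5 lower members. Hlf also lost its call without control 1 at 60 min, Per2 without any of 4 other libraries and Cry2 without any of 8 others. The E-box output gene Ciart changed by -0.32 ± 0.16 (adjusted p 0.118) and Tef, a transcription factor of the clock output, by -0.10 ± 0.044 (adjusted p 0.0800), neither called by edgeR.

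Promoters of the clock list are shown because 17 of its 18 members had a negative log2 change. Windows from 250 bases before to 50 after the annotated start were read from RefSeq on GRCm38.p6 and searched for the E-box CACGTG, which reads the same on both strands. It occurred in 7.15% of all 32851 windows and in 10.5% to 11.5% of tested genes whether called higher, lower or not. Of the 8 lower clock members 7 had a window and none held the E-box, while of the 10 members not called 9 had a window and 5 held it. These groups rest on the p threshold and not on direction, and their membership shifts. Hlf, Per2 and Cry2 lost calls as given above, and Ciart and Tef each gained a call in 3 settings. Arntl, Npas2, Nr1d1 and Dbp, also not called, had windows but no E-box and are not shown. Tef had 2 windows, of which 1 with the E-box is shown. The windows of 2 lower members (Per3 and Nr1d2) and 2 members not called that hold the E-box (Ciart and Tef) follow, 5′ to 3′, with the E-box in capitals.
Per3 (chr4:151044616-151044915, minus strand): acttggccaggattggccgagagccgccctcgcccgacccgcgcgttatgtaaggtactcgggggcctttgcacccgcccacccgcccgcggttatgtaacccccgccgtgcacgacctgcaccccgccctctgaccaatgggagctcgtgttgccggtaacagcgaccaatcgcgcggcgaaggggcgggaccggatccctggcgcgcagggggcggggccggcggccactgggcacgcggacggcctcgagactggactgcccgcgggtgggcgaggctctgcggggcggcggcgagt
Nr1d2 (chr14:18239057-18239356, minus strand): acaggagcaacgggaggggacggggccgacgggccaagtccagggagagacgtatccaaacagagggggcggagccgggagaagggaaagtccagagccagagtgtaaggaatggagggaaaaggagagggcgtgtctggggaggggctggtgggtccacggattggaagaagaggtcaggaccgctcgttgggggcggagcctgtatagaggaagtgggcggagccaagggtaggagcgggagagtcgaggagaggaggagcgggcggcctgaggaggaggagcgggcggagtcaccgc
Ciart (chr3:95882179-95882478, minus strand): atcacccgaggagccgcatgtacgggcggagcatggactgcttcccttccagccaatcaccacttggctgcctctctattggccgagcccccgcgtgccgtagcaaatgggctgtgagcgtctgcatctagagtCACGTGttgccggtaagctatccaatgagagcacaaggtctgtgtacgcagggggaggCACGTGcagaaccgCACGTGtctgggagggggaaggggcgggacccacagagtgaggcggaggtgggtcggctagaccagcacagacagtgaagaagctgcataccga
Tef (chr15:81802423-81802722, plus strand): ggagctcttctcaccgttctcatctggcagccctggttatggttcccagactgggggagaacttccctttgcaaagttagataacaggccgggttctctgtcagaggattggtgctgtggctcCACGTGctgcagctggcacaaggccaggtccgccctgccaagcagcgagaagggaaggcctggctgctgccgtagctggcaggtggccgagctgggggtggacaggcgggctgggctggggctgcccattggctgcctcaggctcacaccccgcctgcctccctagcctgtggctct
The Ciart window held 3 E-boxes and the Tef window shown held 1. This is a count of letters in a window, and no site was tested for binding.

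The same interval was next examined in frontal cortex of intruder-exposed residents, which share no library with the controls but carried the same tags at the same times. There edgeR called 7780 genes between 30 and 60 min (45.5%), 3807 higher (22.3%) and 3973 lower (23.2%). Of the 6046 genes called in controls, 5211 were called in the same direction and 1 in the opposite direction. The difference between the conditions in this change was called for 0 genes by edgeR, DESeq2 and limma voom, with 594 genes at an unadjusted p below 0.05 by edgeR. Among leading genes, S1pr1 changed by -1.15 in intruder-exposed animals and -1.17 in controls, Nxph3 by 0.89 and 1.13, and Pnisr by -0.71 and -0.58. Crym changed by 0.68 and 1.28, a gap that the interaction test did not call. Oxidative phosphorylation genes were higher in 72 of 77 in intruder-exposed cortex (median 0.38), ribosomal protein genes in 75 of 78, and chromatin regulators lower in 25 of 29 (median -0.35). Myelin genes were higher in 10 of 13 and deep-layer markers in 5 of 11. Olfactory bulb markers were higher in 7 of 9, with a median of 1.49 beside 0.83 in controls. Clock genes were lower in 5 of 18, near the 23.2% of all genes, with a median of -0.05 beside -0.21 in controls. Immediate-early genes were lower in 7 of 30, about the 23.2% of all genes called lower there, and higher in 1.

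The other 2 regions of control animals were compared over the same interval in a fit of 28 libraries, with 17861 genes tested. The labels give the same animal numbers in the 3 regions at each time (3 of the 5 in hypothalamus at 30 min), so these libraries are not independent between regions, and a fit with the animal as a block is given beside the difference. In that fit frontal cortex had 5310 calls (29.7%), amygdala 0 and hypothalamus 0 by edgeR. At an unadjusted p below 0.05 there were 1893 genes in amygdala and 1051 in hypothalamus, and DESeq2 called 32 and 2 and limma voom 0 and 0. Leaving out amygdala control 1 at 60 min gave 67 calls in amygdala, and leaving out hypothalamus control 2 at 30 min gave 31 in hypothalamus. The difference itself was tested, and the change in frontal cortex differed from that in amygdala in 3050 genes (17.1%), with 1223 higher (6.85%) and 1827 lower (10.2%) in cortex, and from that in hypothalamus in 3867 genes (21.7%), 1983 higher (11.1%) and 1884 lower (10.5%). With the animal as a block, 3272 and 4133 genes were called. Leaving out single libraries gave 2264 to 3470 and 3044 to 4159, and without cortex control 5 at 60 min 805 genes were higher in the difference from amygdala. The tags ISO and CERV separate the times in these regions as in cortex.

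The clearest single genes of this difference were lower in cortex at 60 min. S1pr1 changed by 0.37 in amygdala and 0.16 in hypothalamus, while Kctd16 (ENSMUSG00000051401), an auxiliary subunit of GABA-B receptors, changed by -1.23 ± 0.21 in cortex, 0.59 in amygdala and 0.11 in hypothalamus. Kctd16 in cortex was at 11.7, 11.1, 8.91, 9.27 and 8.85 CPM at 30 min and 4.25, 5.04, 5.01, 3.22 and 3.76 CPM at 60 min, without overlap. Papolg, a second poly(A) polymerase, fell from 22.4 ± 0.836 to 15.2 ± 1.67 CPM in cortex (log2 change -0.56 ± 0.10) and changed by 0.22 and 0.13 in the other regions. Ahctf1, which encodes a nuclear pore assembly protein, changed by -0.48 ± 0.079 in cortex, 0.11 in amygdala and 0.16 in hypothalamus. Proser1 changed by 0.49 and 0.42 there. In the lists, the difference from amygdala was called for 16 of 77 oxidative phosphorylation genes, 36 of 78 ribosomal protein genes, 19 of 29 chromatin regulators and 8 of 13 myelin genes, each in the direction seen in cortex. The difference from hypothalamus was called for 66, 67, 20 and 0 of them. The red blood cell genes had medians of 0.46 in amygdala and 0.38 in hypothalamus, next to 0.59 in cortex, and no difference between regions was called for any of them. The glucocorticoid-responsive list likewise had medians of 0.17 and 0.27 beside 0.20, with 1 member called lower in cortex than in hypothalamus.

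Levels at 120 min are given as values, since that comparison would share these controls. In the 6 controls at 120 min, which carried the tag CERV, S1pr1 was at 84.3 to 115 CPM (median 108), with a median between the groups at 30 and 60 min. Proser1 was at 10.8 to 18.6 CPM (median 14.5) and Pnisr at 229.9 to 299 CPM (median 250.1), both also with medians between them. Crym was at 36.5 to 58.4 CPM (median 46.3) and Nxph3 at 18.8 to 29.7 CPM (median 20.5). N4bp3 was at 8.99 to 11.4 CPM (median 10.99), below the 60 min libraries, which held 13.9 to 19.4 CPM. P3h3 was at 15.3 to 20.3 CPM (median 17.6), a range that overlaps its 14.4 to 16.8 CPM at 60 min.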

How the data were processed

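Poly(A) RNA was sequenced from 90 libraries, and the deposited table holds read counts per gene for each, together with rows for reads without a feature, ambiguous or not uniquely aligned. Per the labels, RNA was extracted with Trizol, treated with DNase and made into stranded TruSeq libraries read from a single end. The submitters' processing notes name CASAVA 1.8.2, TopHat2 2.0.8, HTSeq 0.6.1, edgeR 3.2.4, R 3.0.0 and the build NCBIM37 without giving their roles. The deposited counts are raw and were analysed as they stand. The 5 summary rows, 20.7% to 23.8% of all reads in the 10 libraries, were left out of library sizes and tests. Reads aligned to more than 1 place are not in gene counts, so genes with near-identical copies are uncertain.

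Symbols came from GENCODE M21 (32919 of 37991 identifiers), and promoters from RefSeq on GRCm38.p6, with no coordinate of the files used. Tests were run with edgeR 4.0.16 in R 4.3.3 (quasi-likelihood, filterByExpr, TMM, Benjamini-Hochberg) over 32 frontal cortex libraries in 6 groups, which share 1 estimate of the spread, and over 28 control libraries of 3 regions for the region comparison. CPM values are the deposited counts scaled to CPM with TMM library sizes. Limma 3.58.1 (voom) and DESeq2 1.42.0 were alternatives, beside other scalings, no filter, a test against a fold, a replicate block, single indexes, GC and length offsets, and leaving out each library. The main comparison's test was checked on simulated counts. The groups at 30 and 60 min were different animals, so the replicate numbers do not pair their libraries. Same-numbered libraries correlated at 0.18, -0.10, 0.02 and 0.23 in controls, and differently numbered ones at -0.31 to 0.42.

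In each direction, named genes were the 10 with the smallest adjusted p and the 5 with the largest change. Both sets came from called genes with a symbol, a mean of at least 1 CPM and no overlap between the groups. The 3 genes with the smallest adjusted p in each region difference and members of the gene lists were named too. The members and lists were chosen with earlier results of these data known. The p-values measure the spread between libraries labelled as separate animals.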

Additional observations from a re-analysis of the deposited data

Results flagged for a closer look

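Each of 152 groups of 5 libraries was tested for a value far from the others. A value was flagged in 4 of them, fewer than the about 1 in 20 that chance gives. Nxph3 was at 19.8 CPM in control 3 at 30 min and at 11.7 to 13.3 CPM in the other 4. The summed ribosomal protein genes reached 11873 CPM in control 5 at 60 min, against 10577 to 10840 CPM (10839.7) in the others. The summed nuclear-retained long noncoding RNAs reached 8997 CPM in control 2 at 30 min, against 7266 to 7655 CPM. The summed synaptic vesicle and release genes reached 16174 CPM in control 4 at 30 min, against 14845 to 15165 CPM.

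For 5 genes the change from 30 to 60 min differed between regions by the edgeR test of the difference. The change in frontal cortex minus that in amygdala was -1.53 for S1pr1 (adjusted p 1.71e-07), -1.80 for Kctd16 (2.19e-07), -0.77 for Papolg (2.19e-07), -2.20 for Proser1 (2.8e-07) and -0.57 for Ahctf1 (2.61e-06), on the log2 scale. Against hypothalamus it was -1.32 for S1pr1 (edgeR adjusted p 8.03e-06), -1.33 for Kctd16 (3.77e-05), -0.68 for Papolg (1.27e-05), -2.13 for Proser1 (8.03e-06) and -0.62 for Ahctf1 (8.03e-06). These genes were picked for the smallest p of those differences, and the unexplained tags separate the times in each region.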

How the results depend on the processing

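The count of 6046 genes called in frontal cortex controls was 5421 to 6201 with other scalings, no filter, limma voom, DESeq2 or the 2 groups alone, and 4743 (without control 5 at 60 min) to 6149 (without control 3 at 60 min) when single libraries were left out. The test against a fold of 1.2 called 570 genes (99 higher, 471 lower), and the index of controls 1, 2 and 3 alone 3799 (1942 higher, 1857 lower), with 2 fewer libraries. The index of controls 5 and 6 gave 4886. The replicate block, although the numbers do not pair the libraries, gave 5099 calls (2391 higher, 2708 lower), of which 4602 were among the 6046. In amygdala and hypothalamus DESeq2 called 32 and 2 genes, fits of each region alone (an alternative chosen after seeing the data, as were the list counts under each setting) 23 and 3, and leave-one-out fits 0 to 67 and 0 to 31. Of 154 called genes named or listed with alternatives, 108 kept the call in all settings but the test against a fold, and 56 kept it there too. Leaving out a library, 26 lost it, while 26 lost it with the index of controls 1, 2 and 3 alone, 25 with that of controls 5 and 6, 21 with the GC and length offsets and 9 with the replicate block. Among genes given with values, these include Olig2, Vgf, Nfil3, Scg2 and Hspa8 with the first index, Snhg11, Th and Dlx2 with the second, and Vgf, Th, Dlx2 and Lef1 with the offsets.

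Depth at 60 minus 30 min (-1.02 M reads) ranged from -2.22 to 0.765 when single libraries were left out, with 0.0416 without control 4 at 30 min and 0.765 without control 3 at 60 min. The difference in genes with a read ranged from -249 to -107 (-249 without control 1 at 60 min). With the other denominator (gene reads in place of all reads, or the reverse for mitochondrial genes) the difference was 0.0416 percentage points for ambiguous reads (exact permutation, adjusted p 0.0778), 0.572 for reads not uniquely aligned (exact, 0.0694) and 0.606 for mitochondrial genes (exact, 0.0111). The mitochondrial difference ranged from 0.450 to 0.700 among leave-one-out values, the highest without control 6 at 60 min. The causes were not tested.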

Other observations

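Interneuron markers, given as values, included 4 higher and 1 lower of 13, beside 17.2% and 18.1% of all genes, with a summed level of 988 to 1055 CPM at 30 min and 1074 to 1204 CPM at 60 min. The higher count was 7 with the replicate block and 2 with the index of controls 5 and 6 alone. Besides Sst, Cort, a peptide related to somatostatin, changed by 0.51 ± 0.13, Lhx6, a transcription factor of interneurons, by 0.25 ± 0.069, and the vesicular GABA transporter Slc32a1 by 0.36 ± 0.12 (log2, SE), where Lhx6 and Slc32a1 lost their calls with that index. Reln, which encodes the secreted protein reelin, was the lower member at -0.28 ± 0.10 and lost its call without any 1 of 4 libraries. Of 8 excitatory neuron markers 1 was called, Bhlhe22 at -0.38 ± 0.096, below the 18.1% of all genes called lower. The Bhlhe22 call was lost with the index of controls 5 and 6 alone. Without control 6 at 60 min 2 markers were lower. The replicate block called 3 of the 8 higher and 3 lower, and the 2 groups alone 2 and 2.

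Of 12 microglial genes 3 were higher, beside 17.2% of all genes, namely the complement genes C1qa (0.27 ± 0.076), C1qb (0.19 ± 0.072) and C1qc (0.19 ± 0.066). The count was 0 with the index of controls 5 and 6 alone and 1 to 5 when single libraries were left out (1 without control 4 at 30 min or control 1 at 60 min, and 5 without control 2 at 60 min). Of 15 replication-dependent histone genes 6 were higher and 1 lower, beside 17.2% and 18.1% of all genes, with Hist1h2bc at 0.33 ± 0.088 and Hist2h4 at -0.89 ± 0.21. The higher count was 1 with the index of controls 5 and 6 alone, where Hist1h2bc lost its call, and 2 without any of controls 1 and 4 at 30 min and controls 2 and 5 at 60 min, and histone copies resemble each other.

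Splicing proteins moved both ways, with 3 of 30 higher and 7 lower, around the 17.2% and 18.1% of all genes, and with GC and length offsets 11 higher and 4 lower. The higher count was 5 without control 1 at 60 min. Srsf11 changed by -0.32 ± 0.049 and Hnrnph1 by -0.30 ± 0.054. Of 16 heat shock and cold-inducible genes 3 were higher, about the 17.2% of all genes, among them the chaperones Hsp90ab1 (0.17 ± 0.043) and Hspa8 (0.18 ± 0.059), and 1, the cold-inducible Rbm3, was lower at -0.18 ± 0.070. Hspa8 lost its call without control 1 at 30 min, where 1 member was left higher, and Rbm3 without any 1 of 8 libraries. Of 14 ER stress genes 1 was higher in controls, Atf4 at 0.17 ± 0.059, below the 17.2% of all genes. That call was lost without control 1 at 30 min, with the index of controls 1, 2 and 3 alone and with the GC and length offsets. The count was 4 without control 5 at 30 min and with the replicate block, 3 with the 2 groups alone, and 2 without any of controls 1, 3 and 6 at 60 min. In intruder-exposed cortex 10 of these 14 were higher over the same interval, beside 22.3% of all genes, with no gene of the difference called.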
